A study of Homo sapiens with 12 samples.

Results

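JK139 was compared with Rhosin in 3 gastric cancer cell lines. The comparison took the 3 arrays labelled as JK139 and the 3 labelled as Rhosin, which is 6 of the 12 arrays of the study, and paired them by line. The lines were AGS, from a gastric adenocarcinoma, MKN1, from an adenosquamous carcinoma of the stomach, and SNU601, from a signet ring cell carcinoma. Each line had been grown in RPMI-1640 with fetal calf serum and exposed to the solvent DMSO, to Rhosin, to JK136 or to JK139, with 1 array for each line and treatment. The labels used here state neither dose nor duration, so matched doses and times cannot be assumed. With 1 culture per line and treatment, the 3 lines served as the replicates. Every error and p-value below rests on the spread of the difference between lines and not between cultures of a line. The fit used, limma, draws each gene's spread toward that of all genes. A printed error or interval is therefore not the gene's own spread over the 3 lines alone.

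RhoA is a small GTPase that switches between an inactive, GDP-bound form and an active, GTP-bound form. Exchange factors load it with GTP, GTPase-activating proteins turn it off, and the active form acts through kinases and formins on actin filaments, myosin contraction and the transcription factor SRF with its MRTF cofactors. Rhosin is a small molecule made to bind RhoA and block its activation by exchange factors. JK136 and JK139 are known here by their code names alone.

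Expression was measured on Affymetrix Human Gene 2.0 ST arrays, which read whole transcripts with many probes per transcript cluster, and the unit throughout is the log2 signal. A difference is always JK139 minus Rhosin, so that 1 unit is a doubling and a positive value is a higher signal with JK139. Of 53617 transcript clusters 16098 carried a gene symbol, and these stood for 14884 genes, of which 8930 had a mean signal at or above 4.61, the 40th percentile, and were tested. Medians of the 12 arrays over these genes lay between 6.15 (AGS with Rhosin) and 6.25 (MKN1 with Rhosin). Over all 53617 clusters the AGS array with Rhosin had instead the highest median of the 12. What this array's position adds to the differences within AGS was not tested. Epithelial markers were present in all 6 arrays, with EPCAM between 6.32 and 10.20 and KRT18 between 9.57 and 10.74. VIM and FN1, markers of mesenchymal cells, reached 8.25 and 9.64 in MKN1, and LUM, a fibroblast gene, reached 9.06 there. In AGS and SNU601 these genes were at most 4.40, 3.55 and 3.50. The endothelial markers PECAM1 and VWF and the fibroblast marker DCN stayed at or below 4.51 in all 6 arrays.

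No gene differed between JK139 and Rhosin at an adjusted p under 0.05 in limma's test with line as a paired term (0 of 8930 genes, 0%). The smallest adjusted p was 0.661, and 607 genes (6.8%) had an unadjusted p under 0.05 (309 higher with JK139, 3.46%, and 298 lower, 3.34%), against 446.5 that would fall there if no gene differed. The 95% interval of a gene's mean difference reached a median of 0.25 to either side, which is the precision that 3 lines gave with spreads shared across genes. Of the genes tested, 4492 (50.3%) had a higher mean with JK139 and 4438 (49.7%) a lower one. With JK139 the signal was higher in all 3 lines for 1329 genes (14.9%) and lower in all 3 for 1289 (14.4%). A single gene, IGFL2, lay at least 1.5-fold higher in each of the 3 lines (0.0112%), and no gene lay at least 1.5-fold lower in each (0%). Without SNU601 the same test called 12 genes. CEACAM5, DDIT4, HKDC1, MIR1229, MYO1G, NICOL1 and TIPARP were lower and CST4, PCDHB13, SNAR-F, SOX2 and ZNF708 higher. A gene's own spread then had 1 degree of freedom, so these p-values rest largely on the spread shared across genes. They do not measure how well AGS and MKN1 agreed. SOX2 was called with 1.85 (AGS) and 0.26 (MKN1), and DDIT4 with -1.50 and -0.30. In SNU601, the line left out there, CST4 (-0.50) and ZNF708 (-0.10) were lower with JK139, and MYO1G (0.22) and NICOL1 (0.40) higher. The rest had the same sign in SNU601 as in that fit. Without AGS or without MKN1 the test called 0.

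The 3 lines differed in how far the compounds lay apart. In AGS the differences had an SD of 0.30 across genes, in MKN1 0.22 and in SNU601 0.21. Of all genes, 51.6% were higher with JK139 and 48.4% lower in AGS. The shares were 48.4% and 51.6% in MKN1, and 50.1% and 49.9% in SNU601. At least 1.5-fold higher with JK139 were 264 genes in AGS (2.96%), 77 in MKN1 (0.862%) and 67 in SNU601 (0.75%). At least 1.5-fold lower were 219 genes in AGS (2.45%), 93 in MKN1 (1.04%) and 82 in SNU601 (0.918%). Across the 8930 genes the differences of AGS and MKN1 had a Pearson correlation of 0.02, those of AGS and SNU601 0.16, and those of MKN1 and SNU601 0.07. These values describe genes, which are not independent of each other. Set beside the DMSO array of the same line, which both compounds share, AGS had 369 genes at least 1.5-fold away with Rhosin and 120 with JK139. The corresponding counts were 149 and 116 in MKN1 and 202 and 104 in SNU601. In each line the Rhosin array thus lay farther from DMSO by this count than the JK139 array did. A line had 1 array per treatment, so none of these counts has a replicate within a line.

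**Figure D1:**
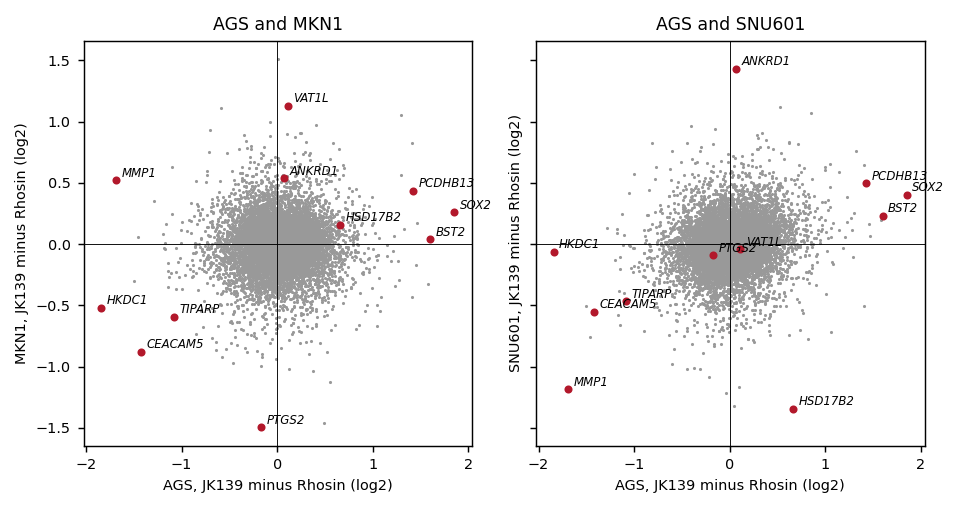
Difference between JK139 and Rhosin (log2 signal) for each of the 8930 genes tested, AGS on the horizontal axis against MKN1 (left) and SNU601 (right), with 11 genes marked. The cloud is wider along the AGS axis (SD 0.30) than along MKN1 (0.22) or SNU601 (0.21). The Pearson correlation is 0.02 and 0.16, and TIPARP and CEACAM5 lie in the lower left of both panels.

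TIPARP, GDF15, EPS8L1, NTN4 and ADGRF1 were among the 12 genes ranked first of those that lay lower with JK139 in every line. None of the 12 passed the test after adjustment (limma, adjusted p between 0.661 and 0.711). TIPARP encodes a mono-ADP-ribosyltransferase that is induced by, and represses, the aryl hydrocarbon receptor. Its signal was 8.59 (AGS), 9.13 (MKN1) and 8.77 (SNU601) with Rhosin. With JK139 it was 7.51, 8.54 and 8.30. The DMSO arrays of the 3 lines read 7.58, 8.41 and 8.29. JK139 arrays thus sat near the DMSO arrays and below the Rhosin arrays in each line. The mean difference was -0.71 ± 0.14 (limma's SE, 3 lines), with a 95% interval from -1.03 to -0.40. Without SNU601 the mean was -0.84, with an adjusted p of 0.0167 in limma. TIPARP was not called without AGS or without MKN1.

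The window upstream of TIPARP is printed because the gene is a target of the aryl hydrocarbon receptor. It covers chr3:156674340-156674589 of GRCh38.p14, plus strand, the 250 bases before the start of the RefSeq transcript. Capitals mark 2 matches to GCGTG, the core that the receptor binds, both on the opposite strand.
TIPARP: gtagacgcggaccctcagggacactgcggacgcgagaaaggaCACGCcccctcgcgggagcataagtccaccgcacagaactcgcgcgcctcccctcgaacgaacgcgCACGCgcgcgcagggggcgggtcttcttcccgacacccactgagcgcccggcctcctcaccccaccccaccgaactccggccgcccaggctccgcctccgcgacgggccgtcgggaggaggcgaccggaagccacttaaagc
GCGTG, searched on both strands, occurred in the 300-base window (250 before the start and 50 after) of 5 of 6 tested genes of the receptor's list (83.3%), in 51.1% of tested genes with a window and in 36.3% of all 27305 windows. A match is a description of the letters, not evidence of binding.

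The aryl hydrocarbon receptor list held 16 genes, of which 7 had a named cluster and 6 were tested. Its median difference was -0.23, against 0.00 over all genes tested, and 3 of the 6 were lower in all 3 lines (50% beside 14.4% of all genes). After TIPARP came STC2, a secreted glycoprotein of the stress response, at -0.67 ± 0.17, and EREG, a ligand of the EGF receptor, at -0.29 ± 0.13. The others of the 6 were NFE2L2, at -0.17, and the receptor AHR itself with its partner ARNT, with mean differences of 0.07 each. STC2 was also on the list of ATF4 genes and EREG on that of MAP kinase feedback genes, so these lists are not independent. EREG was below the filter level in AGS and SNU601 with both compounds, so its value there rests on a low signal. By line the list's median was -0.55 (AGS), -0.15 (MKN1) and -0.07 (SNU601). It was -0.07 without AGS, -0.05 with the filter set at the 60th percentile of level and -0.17 with no filter.

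GDF15, a secreted stress cytokine of the TGF-beta superfamily, read 10.62 (AGS), 6.07 (MKN1) and 8.08 (SNU601) with Rhosin. With JK139 the values were 10.00, 5.41 and 7.59, and with DMSO 10.07, 5.03 and 7.69. The 3 differences of -0.62, -0.67 and -0.50 were close to each other, with a mean of -0.60 ± 0.10. ADGRF1, of the adhesion class of G protein-coupled receptors, stood at 9.0 in SNU601 with Rhosin and 7.99 with JK139. In AGS it read 4.70 and 4.33, and in MKN1 5.17 and 4.48, close to the filter level. Its mean difference was -0.69 ± 0.13. NTN4, a secreted netrin of basement membranes, differed by -0.76 (AGS), -0.47 (MKN1) and -0.51 (SNU601). MIDN, which takes part in ubiquitin-independent delivery of proteins to the proteasome, differed by -0.69, -0.52 and -0.38. EPS8L1, a relative of the actin regulator EPS8, had a mean difference of -0.55 ± 0.10, and the 3 lines gave -0.47, -0.64 and -0.53. ANGPTL4, a secreted inhibitor of lipoprotein lipase, and UNC5B, a netrin receptor, had means of -0.45 and -0.40. The other named genes of this group were MB21D2 at -0.51, the pseudogene DNM1P46 at -0.42, the antisense transcript CD27-AS1 at -0.42 and the microRNA locus MIR4486 at -0.69. Whether the probes of CD27-AS1 keep its strand apart from that of CD27 is not stated in the sources used here.

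CEACAM5, the carcinoembryonic antigen of gut epithelium, had the lowest mean difference of the 8930 genes, -0.95 ± 0.16. With Rhosin it read 10.45 (AGS), 4.37 (MKN1) and 10.21 (SNU601), and with JK139 9.03, 3.50 and 9.66. DMSO arrays gave 9.50, 3.0 and 9.20, so that JK139 lay above DMSO in MKN1 and SNU601 and below it in AGS. In MKN1 both compounds left the signal under 4.61, and the difference of -0.88 there is one between low signals. Without SNU601 the mean was -1.15, with an adjusted p of 0.000208 in limma. The fits without AGS and without MKN1 did not call CEACAM5.

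**Figure D2:**
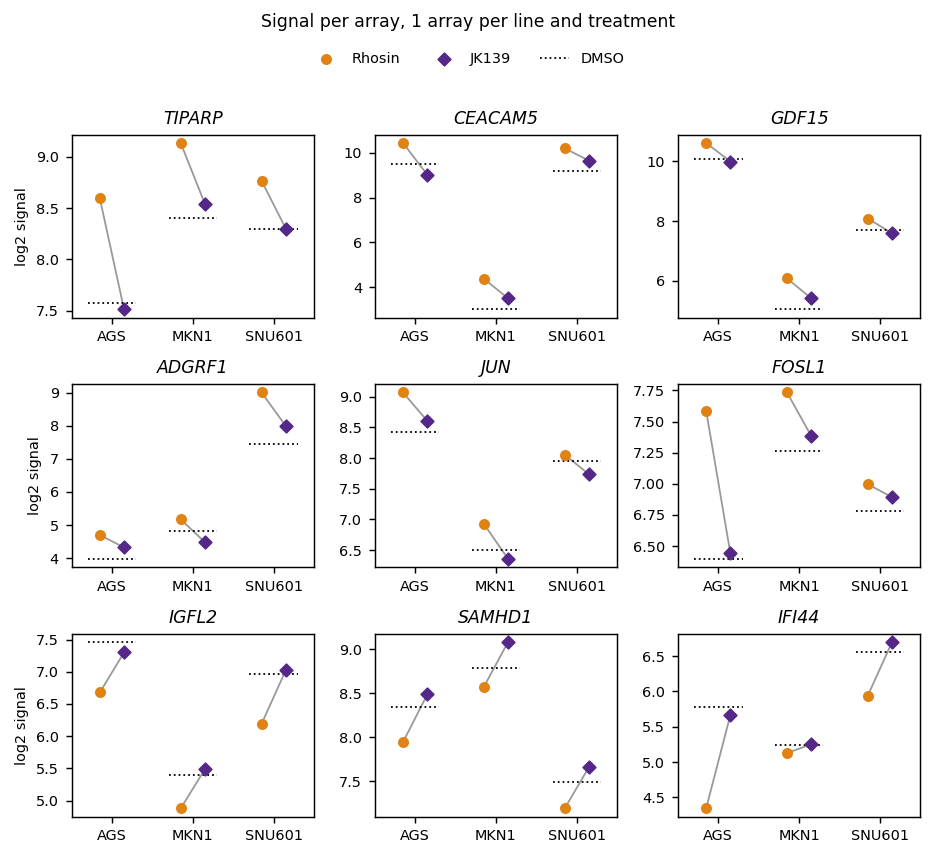
Log2 signal of 9 genes on the Rhosin array (circle), the JK139 array (diamond) and the DMSO array (dotted line) of each line, 1 array per point. TIPARP, GDF15 and FOSL1 sit lower with JK139 than with Rhosin in the 3 lines, and IGFL2, SAMHD1 and IFI44 higher. For several of the genes, among them CEACAM5, ADGRF1 and GDF15, the lines themselves differ by more than the compounds do.

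IGFL2, a small secreted protein of the IGF-like family, was the gene at least 1.5-fold higher with JK139 in each line. Its signal with Rhosin was 6.68 (AGS), 4.88 (MKN1) and 6.19 (SNU601). With JK139 it was 7.30, 5.49 and 7.02, and with DMSO 7.46, 5.39 and 6.96. The Rhosin value was the lowest of these in each line. The mean difference was 0.69 ± 0.10 (95% interval 0.45 to 0.93), a 1.61-fold higher signal, with an adjusted p of 0.661 in limma. SAMHD1, a dNTP hydrolase that restricts retroviruses, differed by 0.54, 0.51 and 0.47. CACYBP, a calcyclin-binding protein linked to ubiquitination, differed by 0.51, 0.35 and 0.44. PCDHB13, a protocadherin of neural adhesion, had a mean of 0.79 ± 0.19 with 1.43 (AGS), 0.44 (MKN1) and 0.50 (SNU601). Without SNU601 its mean was 0.93, with an adjusted p of 0.0115 in limma, but it was not called without AGS or without MKN1. The ankyrin repeat gene ANKRD36B had a mean of 0.47, and it and PCDHB13 have close copies in the genome between which probes may not separate.

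Of the 12 genes ranked first in the higher direction, 3 encode zinc finger proteins: ZNF117 at 0.57, ZNF430 at 0.53 and ZNF432 at 0.38. All tested symbols that begin with ZNF were then read, a group chosen after its values were seen. Of these 338, 211 had a higher mean with JK139 (50.3% of all genes did). In all 3 lines 57 were higher (16.9%, beside 14.9% of all genes) and 33 lower (9.76%, beside 14.4%). The median of the group was 0.04, with 0.09 (AGS), -0.01 (MKN1) and 0.03 (SNU601).

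A further 4 of the 12 were microRNA loci, and MIR4486 was among the 12 of the lower direction. These clusters read RNA from the precursor locus and not the mature microRNA, and their signals were near the filter level in places. The mature sequences of the pair with the larger mean differences, 0.62 for MIR548AL and -0.69 for MIR4486, are given from RefSeq (GRCh38.p14) with the seed, bases 2 to 8, in capitals, to show that they share none.
hsa-miR-548al: aACGGCAAugacuuuuguacca
hsa-miR-4486: gCUGGGCGaggcuggca
MIR3122, MIR4742 and MIR891A had mean differences of 0.50, 0.46 and 0.40. Over all 336 tested MIR loci, 44 were higher in all 3 lines and 43 lower (12.8%), a share near that of all genes.

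**Figure D3:**
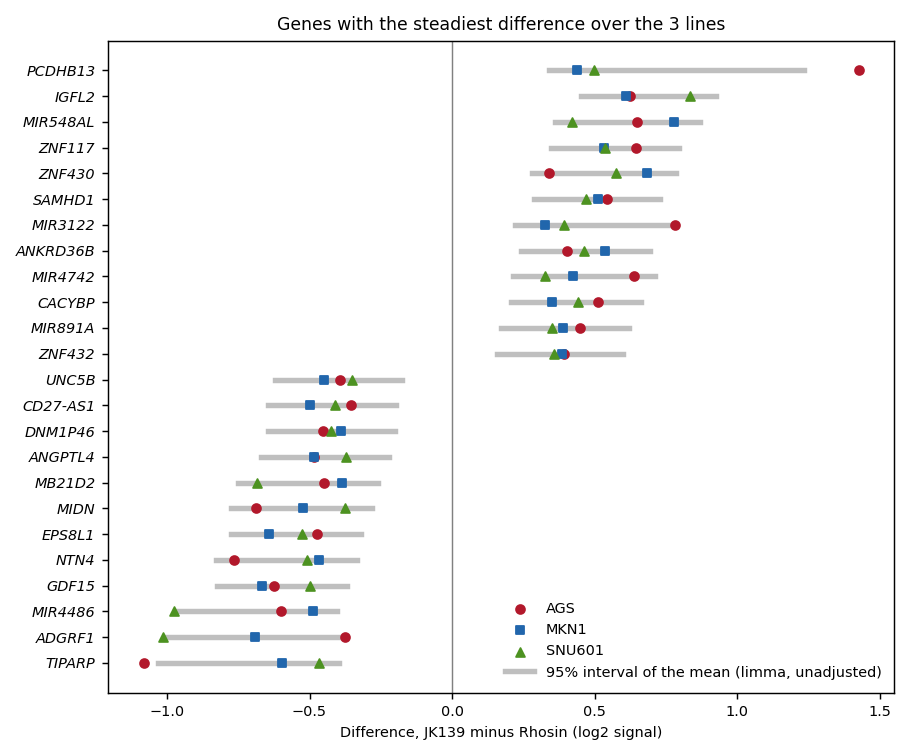
Difference between JK139 and Rhosin (log2 signal) in each line for the 24 genes ranked by their smallest difference over the 3 lines; the bar is the unadjusted 95% interval of the mean from limma. All points of a gene lie on 1 side of 0 by the way the genes were chosen, and AGS stands apart for TIPARP (-1.08) and PCDHB13 (1.43).

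Immediate-early genes, which are transcribed within minutes of growth factor or stress signals, had lower mean signals with JK139 than with Rhosin, with the larger differences in AGS. Of 30 genes on the list, 23 had a named cluster and 22 were tested, and all 22 had a lower mean with JK139 (49.7% of all genes did). In all 3 lines 10 were lower (45.5% beside 14.4%), none was higher in all 3, and 9 lay lower at an unadjusted p under 0.05 in limma (3.34% of all genes did). None passed after adjustment. The median was -0.33, made up of -0.64 (AGS), -0.15 (MKN1) and -0.15 (SNU601). It was -0.14 without AGS. At least 1.5-fold lower were 13 of the 22 in AGS (2.45% of all genes were), 0 in MKN1 (1.04%) and 0 in SNU601 (0.918%). In AGS 0 of the 22 were higher with JK139 (51.6% of all genes were), but 7 were in MKN1 (48.4%) and 6 in SNU601 (50.1%). Of these 1, DUSP1, was at least 1.5-fold higher in MKN1 (0.862% of all genes were). Relative to DMSO, an array that both differences share, the list's median with Rhosin was 0.65 (AGS), 0.14 (MKN1) and 0.20 (SNU601). With JK139 it was -0.01, -0.06 and 0.11.

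FOSL1, a member of the AP-1 transcription factor, led the list with -0.53 ± 0.19. It read 7.59, 7.73 and 7.0 with Rhosin in AGS, MKN1 and SNU601, and 6.44, 7.38 and 6.89 with JK139. DMSO gave 6.40, 7.27 and 6.79, so each JK139 value lay between the DMSO and the Rhosin value of its line. EGR1, a zinc finger factor of the growth response, read 9.72, 9.78 and 7.84 with Rhosin and 8.58, 9.62 and 7.64 with JK139. Its mean difference was -0.50 ± 0.19, with DMSO at 8.05, 9.57 and 7.84. JUN, the partner of FOS proteins in AP-1, was the most even of these over the lines, with -0.46, -0.57 and -0.32 and a mean of -0.45 ± 0.10. ATF3, a stress-induced repressor, had a mean of -0.47 and JUNB -0.46. DUSP1, a phosphatase that turns off MAP kinases, went apart between lines: -1.10 (AGS), 0.63 (MKN1) and 0.07 (SNU601).

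EGR1 is regulated through SRF sites in its promoter, and its upstream window is printed for that reason. It covers chr5:138465229-138465478 of GRCh38.p14, plus strand, 250 bases before the RefSeq start. Capitals mark 2 CArG boxes, the motif SRF binds, and 2 matches on the opposite strand to TGACG, the core of a cAMP response element.
EGR1: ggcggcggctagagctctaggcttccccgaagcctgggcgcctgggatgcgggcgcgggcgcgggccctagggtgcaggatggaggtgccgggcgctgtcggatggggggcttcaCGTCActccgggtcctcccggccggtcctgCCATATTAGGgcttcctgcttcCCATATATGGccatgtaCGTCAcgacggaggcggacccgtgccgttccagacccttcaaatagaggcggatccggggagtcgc
Both motifs were searched on both strands, and no CArG box overlaps a TGACG match here. A CArG box occurred in 1 of 17 tested immediate-early genes with a window (5.88%), in 0.937% of tested genes and in 1.29% of all windows. TGACG occurred in 11 of the 17 (64.7%), in 34.4% of tested genes and in 25% of all windows.

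Genes of the MAP kinase feedback list, taken as induced by ERK signalling, had a median of -0.11 over the 13 tested of 21. Some members damp that signalling, while others are ligands and do not. LIF, a cytokine of the interleukin-6 family, was lower in each line, at -0.35, -0.43 and -0.72, with a mean of -0.50 ± 0.11. HBEGF, a membrane-bound EGF receptor ligand, differed by -1.29 in AGS and by 0.35 and 0.13 in the other lines. The negative regulators SPRY2 and SPRY4 had means of 0.07 and -0.22. Of the 13, 3 were lower in all 3 lines (23.1% beside 14.4% of all genes) and 1 higher (7.69% beside 14.9%).

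Interferon-induced genes, the antiviral programme downstream of interferon receptors, lay higher with JK139 in AGS and SNU601 and not in MKN1. Of 34 listed genes 23 had a named cluster and 20 were tested. With JK139 16 of the 20 had a higher mean (50.3% of all genes did), 7 were higher in all 3 lines (35% beside 14.9%) and none was lower in all 3. The median was 0.21, with 0.47 (AGS), -0.10 (MKN1) and 0.24 (SNU601). All 20 were higher in SNU601, 15 in AGS and 7 in MKN1, beside 50.1%, 51.6% and 48.4% of all genes. Without MKN1 the median was 0.38. Without AGS the median was 0.07. At an unadjusted p under 0.05 in limma 3 of the 20 members lay higher (3.46% of all genes did), and none passed after adjustment. Relative to the shared DMSO array, the median with Rhosin was -0.54 (AGS), 0.01 (MKN1) and -0.08 (SNU601), and with JK139 it was -0.11, -0.01 and 0.24.

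IFI44, a cytoplasmic protein of the antiviral response, had the largest mean of the list, 0.74 ± 0.20. It read 4.34 (AGS), 5.13 (MKN1) and 5.94 (SNU601) with Rhosin, and 5.67, 5.25 and 6.70 with JK139. DMSO gave 5.79, 5.25 and 6.56, so that the Rhosin array of AGS was the low one of that line. BST2, or tetherin, which holds budding virus at the cell surface, differed by 1.6 (AGS), 0.04 (MKN1) and 0.23 (SNU601). In AGS it read 4.28 with Rhosin, 5.88 with JK139 and 5.21 with DMSO. MX2, a GTPase that blocks viral entry to the nucleus, differed by 1.46, -0.17 and 0.17, and IFIT1, which binds viral RNA, by 1.0, -0.36 and 0.63. RIGI, the cytosolic sensor of viral RNA, was steadier, with 0.42, 0.16 and 0.44. The factors that carry the interferon signal to the genes had smaller values, with IRF9 at 0.06 and IRF7 at -0.08 in the mean.

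The upstream window of IFI44 is printed to show the element that the list shares. It covers chr1:78649539-78649788 of GRCh38.p14, plus strand, 250 bases before the RefSeq start. Capitals mark 2 matches to TTTCNNTTT, an interferon response element that IRF and STAT factors bind.
IFI44: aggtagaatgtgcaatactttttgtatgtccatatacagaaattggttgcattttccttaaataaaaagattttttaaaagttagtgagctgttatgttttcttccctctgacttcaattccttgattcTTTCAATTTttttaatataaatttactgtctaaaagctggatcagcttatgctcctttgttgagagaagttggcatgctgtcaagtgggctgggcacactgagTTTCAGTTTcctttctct
TTTCNNTTT was searched on both strands, and matches may overlap. It occurred in 12 of 16 tested members with a window (75%), in 6.54% of tested genes and in 10.6% of all windows. The list was put together from interferon targets, so this share describes the list and says nothing about the compounds.

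Heat shock genes, chaperones and their regulators under HSF1, had higher mean signals with JK139, with the larger differences in AGS. Of 24 listed genes 11 had a named cluster and all 11 were tested, of which 9 had a higher mean (50.3% of all genes did), 5 were higher in all 3 lines (45.5% beside 14.9%) and none was lower in all 3. The median was 0.21, with 0.44 (AGS), 0.07 (MKN1) and 0.12 (SNU601), and it was 0.04 without AGS and 0.34 without SNU601. HSPH1, a co-chaperone of the HSP70 cycle, read 8.25, 9.61 and 9.51 with Rhosin and 9.06, 9.76 and 9.72 with JK139. Its mean difference was 0.39 ± 0.14, with DMSO at 8.87, 9.64 and 9.68. In AGS the Rhosin array was the low one for this gene. CHORDC1, a co-chaperone of HSP90, had a mean of 0.35 ± 0.13 with 0.64, 0.07 and 0.34. HSPB1, a small heat shock protein, had 0.63, 0.04 and 0.25. HSPA1A and HSPA1B, near-identical copies of the inducible HSP70 whose signals cannot be separated with certainty, had means of 0.29 and 0.26. HSF1 itself had a mean of -0.01. Relative to DMSO the list's median in AGS was -0.37 with Rhosin and 0.07 with JK139.

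The window of CHORDC1 is shown as that of a member with the heat shock motif. The window is chr11:90223050-90223299 of GRCh38.p14, minus strand, 250 bases before the RefSeq start, written in the direction of the gene. Capitals mark 3 matches to GAANNTTC, a facing pair of heat shock units.
CHORDC1: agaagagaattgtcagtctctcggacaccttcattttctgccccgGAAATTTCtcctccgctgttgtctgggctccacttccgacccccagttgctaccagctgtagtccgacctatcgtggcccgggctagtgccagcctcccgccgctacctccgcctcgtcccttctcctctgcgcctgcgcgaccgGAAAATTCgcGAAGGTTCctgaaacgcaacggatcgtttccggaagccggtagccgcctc
GAANNTTC reads the same on both strands and occurred in 4 of 10 tested members with a window (40%), in 4.5% of tested genes and in 6.87% of all windows. The window of HSPH1 held 0 matches.

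**Figure D4:**
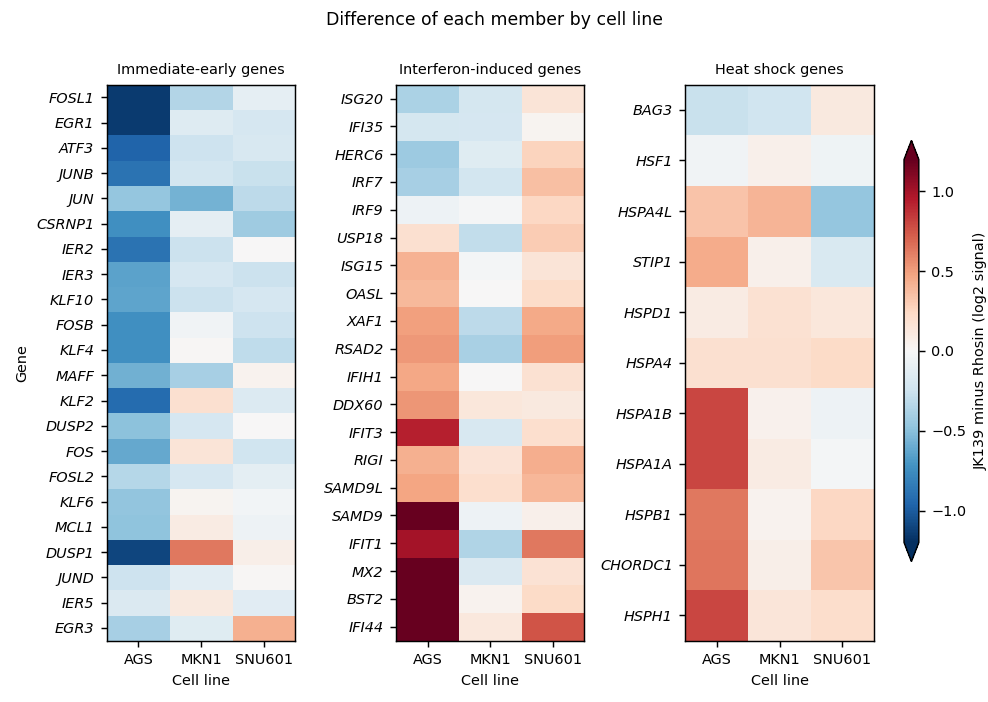
Difference between JK139 and Rhosin (log2 signal, colour from -1.2 to 1.2 and saturated beyond) for each tested member of 3 lists, in each line. The AGS column is blue for all 22 immediate-early genes and red for 15 of 20 interferon-induced and 9 of 11 heat shock genes, and the MKN1 and SNU601 columns are paler.

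RHOA read 10.23, 10.04 and 10.02 with Rhosin in AGS, MKN1 and SNU601, and 10.00, 9.98 and 9.96 with JK139. DMSO gave 10.10, 10.02 and 10.07. The mean difference was -0.12 ± 0.10, with a 95% interval from -0.35 to 0.11, and its sign was the same in the 3 lines. RHOB, which is induced by stress and growth factors, differed by -0.63 (AGS), 0.04 (MKN1) and -0.04 (SNU601). RHOC differed by -0.28, -0.31 and 0.36, so its mean of -0.08 has no common direction. The list of RHOA and its relatives had 7 tested genes of 15, with a median of -0.08 (0.0009 without AGS and -0.15 without SNU601). In all 3 lines 2 were lower (28.6% beside 14.4% of all genes) and none was higher. RHOG, which acts upstream of RAC, was 1 of those 2, at -0.04, -0.41 and -0.26. These arrays measure transcripts, and RhoA activity was not measured.

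Exchange factors had a median of -0.06 over the 18 tested of 21, and 6 of them were higher in all 3 lines (33.3% beside 14.9%). These 6 were AKAP13, ARHGEF1, ARHGEF17, ARHGEF28, ECT2 and MCF2L, with means between 0.04 and 0.23. ARHGEF28, an exchange factor for RhoA, had the largest of the 6 means, with 0.49, 0.05 and 0.15. ARHGEF10L was at the other end, with -0.43, 0.07 and -0.54. The 16 tested inactivators of 21 had a median of 0.00. DLC1, a GTPase-activating protein for RhoA, was lower with JK139 in each line, at -0.51, -0.29 and -0.32, with a mean of -0.37 ± 0.10. ARHGAP29 differed by -1.2 (AGS), 0.08 (MKN1) and -0.13 (SNU601). Its AGS signal was 6.53 with Rhosin, 5.33 with JK139 and 5.49 with DMSO, so the Rhosin array was the high one.

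Effectors and actomyosin genes had a median of 0.04 over the 12 tested of 27. The kinases ROCK1 and ROCK2 were not analysed here. DIAPH3, a formin that nucleates actin filaments, was higher in each line, at 0.47, 0.18 and 0.19, and LIMK1, which phosphorylates cofilin, was lower in each, at -0.12, -0.45 and -0.13. Targets of SRF and MRTF had a median of -0.03 over the 15 tested of 25. In all 3 lines 3 were lower (20% beside 14.4% of all genes) and none was higher. The 3 were TGFB1I1, ZYX and FHL2, LIM-domain proteins of focal adhesions and actin, with means of -0.32, -0.20 and -0.17. SRF had a mean of 0.01. The list's median was -0.12 without SNU601, 0.0032 without AGS, -0.06 after quantile normalization and -0.05 with the mean of a gene's clusters. Targets of YAP and TAZ, which also answer to actin tension, had a median of -0.03 over 10 tested of 18. ANKRD1 was the exception in size: it read 5.06 with Rhosin and 6.49 with JK139 in SNU601, with 6.87 on DMSO, while in AGS the 2 compounds gave 9.20 and 9.27. AJUBA and AMOTL2, scaffold proteins at cell junctions, had means of -0.24 and -0.22 and were lower in each line.

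The list of ATF4 and amino acid stress genes had a median of -0.09 over 15 tested of 27. Of these, 13 were lower in the mean (49.7% of all genes were). In all 3 lines 5 were lower (33.3% beside 14.4%) and none was higher. In AGS all 15 were lower (48.4% of all genes were), with a median of -0.36, while MKN1 and SNU601 each gave -0.06. The median was -0.03 without AGS, -0.15 without MKN1 and -0.20 without SNU601. DDIT4, an inhibitor of mTORC1, read 9.62 with Rhosin, 8.12 with JK139 and 8.70 with DMSO in AGS. Its mean difference was -0.77 ± 0.21, and without SNU601 it was -0.90, with an adjusted p of 0.0264 in limma. DDIT4 was not called without AGS or without MKN1. CTH, which makes cysteine from cystathionine, differed by -0.78, -0.68 and -0.28. ASNS, the asparagine synthetase and a well known ATF4 target, went the other way outside AGS, with -0.36, 0.32 and 0.66. Targets of NRF2, the factor of the oxidant response, had a median of -0.15 over 7 tested of 21, led by TXNRD1, a thioredoxin reductase, at -0.29. Without AGS that median was -0.00. Unfolded protein response genes, the chaperones of the endoplasmic reticulum, had a median of 0.05 over 8 tested of 16. In all 3 lines 3 were higher (37.5% beside 14.9% of all genes). These were MANF at 0.34, CALR at 0.29 and CRELD2 at 0.15. Targets of p53 had a median of -0.05 over 11 tested of 22, with GDF15 lowest and SESN1, a stress-induced regulator of mTORC1, highest at 0.40. Apoptosis regulators had a median of -0.06 over 16 tested of 28, with BAK1, a pore-forming effector, lowest at -0.26.

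DNA replication genes had a higher mean in 19 of the 23 tested of 32 (50.3% of all genes did). Their median was 0.12, but by line it was 0.34 (AGS), 0.01 (MKN1) and 0.00 (SNU601). Without AGS it was -0.02. In AGS the MCM helicase genes MCM2 to MCM7 were each higher, between 0.39 for MCM5 and 0.63 for MCM6, and PCNA, the sliding clamp, differed by 0.34. The list's median relative to DMSO in AGS was -0.39 with Rhosin and -0.01 with JK139. Mitosis genes had a median of 0.10 over 25 tested of 30. Of these, 20 were higher in the mean (50.3% of all genes were) and 9 in all 3 lines (36% beside 14.9%). HMMR, a spindle protein, had the largest of these means, 0.38, with 0.82, 0.26 and 0.07. CCNB1, the mitotic cyclin, differed by 0.42, 0.17 and 0.14. The list's median was 0.03 without AGS and 0.05 after quantile normalization. None of the 27 core histone genes had a named cluster.

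Genes of cell identity did not go one way. Intestinal markers had a median of -0.18 over 8 tested of 18. In all 3 lines 4 were lower (50% beside 14.4% of all genes): CEACAM5, CEACAM6, TFF3 and ANPEP. ANPEP, an aminopeptidase of the brush border, differed by -0.94 in MKN1, where it read 8.04 with Rhosin and 7.11 with JK139, and was under the filter level in the other lines. Gastric epithelial identity genes had a median of 0.06 over 13 tested of 24. In all 3 lines 4 were higher (30.8% beside 14.9%) and 2 lower (15.4% beside 14.4%). SOX2, a transcription factor of the foregut and stomach, read 5.26 with Rhosin, 7.12 with JK139 and 7.17 with DMSO in AGS. Its mean difference was 0.84 ± 0.28, with 0.26 in MKN1, where both values were below the filter level, and 0.40 in SNU601. Epithelial adhesion genes had a median of -0.04 over 22 tested of 26. EHF, an epithelial ETS factor, was lower in each line, at -0.49, -0.63 and -0.31, and so was KRT8, a simple epithelial keratin, at -0.57, -0.38 and -0.22. Targets of Wnt signalling had a median of 0.10 over 13 tested of 19, with 0.35 (AGS), 0.01 (MKN1) and 0.17 (SNU601), and -0.01 without AGS. EPHB3, a receptor that sorts cells along intestinal crypts, had a mean of 0.48, and LGR5, a stem cell receptor, differed by 0.58 (AGS), -0.51 (MKN1) and 0.36 (SNU601).

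Markers of other cell types were read as a check. Of 16 leukocyte genes 5 were tested, and 3 were lower in all 3 lines (60% beside 14.4% of all genes). These were CD68, a lysosomal protein that epithelial cells also carry, at -0.37, and CD4 and CD8A at -0.16 each, with CD4 under the filter level in MKN1. Their part in the other results was not tested. LYZ, which gastric epithelium also makes, read 10.17 with Rhosin and 11.25 with JK139 in AGS. Mesenchymal genes had a median of 0.02 over 7 tested of 24. Of 14 endothelial and fibroblast genes only LUM was tested, at -0.09. Housekeeping genes had a median of 0.04 over 8 tested of 18, with 0.13 (AGS), 0.01 (MKN1) and 0.01 (SNU601). Over all genes tested the AGS median was 0.01.

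**Figure D5:**
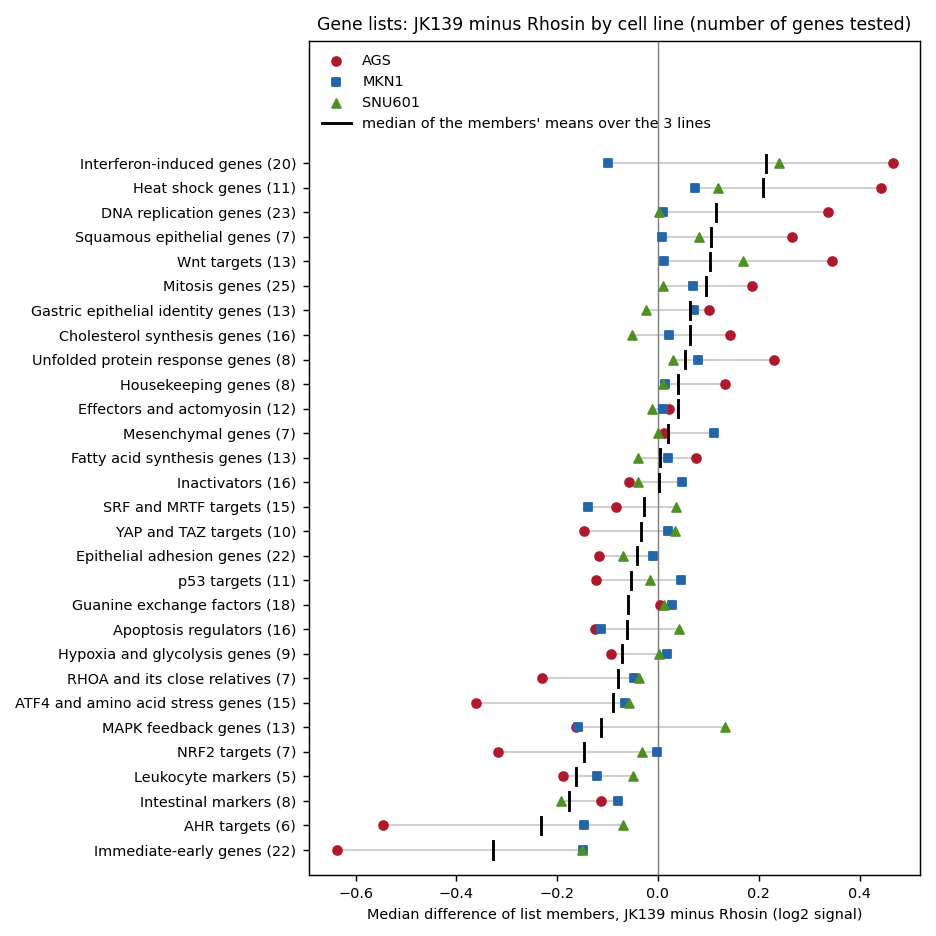
Median difference between JK139 and Rhosin (log2 signal) over the tested members of each list with at least 5, in each line (points) and for the members' means over the 3 lines (bar). The AGS point is the outermost one in the lists at both ends: -0.64 for immediate-early genes and 0.47 for interferon-induced genes.

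Each line also had genes that stood far apart in it alone or nearly so. In AGS the hexokinase-domain gene HKDC1 differed by -1.84 and MMP1, a collagenase, by -1.69. MMP1 also differed in SNU601, by -1.18, while in MKN1 its signal was below the filter level. In MKN1 PTGS2, the inducible cyclooxygenase, read 6.98 with Rhosin, 5.48 with JK139 and 5.41 with DMSO, a difference of -1.49. It differed by -0.17 in AGS and by -0.09 in SNU601, where both compounds left it below the filter level. VAT1L differed by 1.13 in MKN1, the largest positive value there among genes whose higher array reached the filter level. In AGS and SNU601 VAT1L was below that level with both compounds. In SNU601 ANKRD1 stood at 1.43, MAP2K6, a kinase upstream of p38, at 1.07 (0.85 in AGS), and S100A9, a calcium-binding inflammatory protein, at -1.32. PIM1, a kinase of cytokine signalling, differed by -1.46 (AGS), 0.06 (MKN1) and -0.76 (SNU601). None of these within-line values has a replicate. An exact sign-flip permutation over 3 lines cannot give a 2-sided p below 0.25, so the fit across all genes was the test used.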

How the data were processed

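Total RNA from 3 gastric cancer cell lines under 4 treatments was hybridised to 12 arrays, of which the 6 of JK139 and Rhosin were compared. The authors deposited log2 signals, with values between 0.286 and 13.0. Per the submitters' processing notes they used RMA, which corrects background, quantile normalizes and summarises probes, in Affymetrix Expression Console (version not given in the sources used here). These values were used as they stand. Gene symbols came from GEO's platform annotation, so 37519 clusters were left unnamed here. For a gene with several clusters, the one with the highest 6-array mean was kept, and genes with means under the 40th percentile (4.61) were left out.

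The test was limma 3.58.1 in R 4.3.3 (lmFit and eBayes) with line as a fixed term, which pairs the arrays of a line because they come from the same cell line. P-values were adjusted by Benjamini-Hochberg over 8930 genes, and the fit was tested on simulated data. Lists were described by counts and medians, with no test. The comparison and the 32 lists were chosen with earlier results of these data known. The genes named were those past an adjusted p of 0.05 and, in their absence, the 12 per direction with 1 sign in all 3 lines and the largest smallest difference, the higher array of each pair reaching 4.61; RHOA, RHOB, RHOC, TIPARP and CEACAM5; up to 4 members per list with the largest mean difference; the 5 highest and 5 lowest per line; and the 5 with the widest range over lines. Other list members were named as examples after their values were seen. Motifs were searched with Python 3.11.15 in RefSeq windows, and figures were drawn with matplotlib 3.10.9. Arrays give no read depth, and their number limits the precision.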

Additional observations from a re-analysis of the deposited data

Results flagged for a closer look

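Among the named genes, 6 were at least 1.5-fold higher with JK139 in 1 line and at least 1.5-fold lower in another. With 1 array per treatment and line, the difference between lines was not tested for any of them. HSD17B2, a steroid dehydrogenase, had the widest span of the 6, 2.01 log2 units, from 0.66 in AGS to -1.34 in SNU601. It read 7.84 with Rhosin, 6.49 with JK139 and 6.6 with DMSO in SNU601. The AGS arrays read 4.16 with Rhosin and 4.82 with JK139, near the filter level. MIR194-2, a microRNA locus, spanned 1.87, from 0.66 in MKN1 to -1.22 in SNU601. DUSP1 spanned 1.74, from 0.63 in MKN1 to -1.10 in AGS, and its signal was above 6.5 on all 6 arrays. CADPS2, a factor of dense-core vesicle release, spanned 1.71, from 1.05 in AGS to -0.67 in MKN1. CNTNAP3B, a cell adhesion gene with near-identical copies, also spanned 1.71, from 1.11 in MKN1 to -0.59 in AGS. MIR1226 spanned 1.64, from 0.93 in MKN1 to -0.71 in AGS.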

How the results depend on the processing

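The 3 lines limit the precision, and values near 4.61 sit at the filter level. In 17 other settings the number of genes called at an adjusted p under 0.05 (limma) was 0, apart from the fit without SNU601; leaving out 1 line gave 0 to 12. The smallest adjusted p was 0.355 with all 12 arrays, 0.176 with an intensity trend and 0.343 with a filter at the 60th percentile. With no replicate block, that is without pairing by line, 0 genes were called and 15 had an unadjusted p under 0.05, against 607 with it. The gene at least 1.5-fold higher in every line numbered 0 after quantile normalization, 3 without the filter, 2 with every cluster on its own and 0 at 2-fold. Over all 53617 clusters, a setting chosen after seeing the data, 75 were higher and 36 lower by this rule. Leaving out 1 line gave 2 to 13 higher and 2 to 8 lower. Followed through the settings were 58 genes: the 24 ranked by their smallest difference, RHOA, RHOB, RHOC, CEACAM5 and the leading members of 8 lists. Of their 853 values 841 kept their direction and side of the threshold, 4 passed it without SNU601 and 8 changed sign when a line was left out. Over the lines left out in turn, the differences ran as follows: RHOB -0.33 to 0.0009, RHOC -0.30 to 0.037, MX2 -0.0016 to 0.81, ATF5 -0.61 to 0.03, GINS2 -0.022 to 0.54, MCM6 -0.018 to 0.37 and MRTFA -0.29 to 0.089. The cause of these changes was not tested. The medians of 9 lists were followed too, and that of the SRF and MRTF targets, -0.12 without SNU601, was the one that moved by more than the spread between lines. Some moved by over 1.5 times within that spread, among them the aryl hydrocarbon receptor list, -0.05 with the filter at the 60th percentile.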

Other observations

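Some further groups of genes were read in the same way. Metallothioneins, small proteins that bind zinc and copper, had 4 tested of 10 listed genes and a median difference of 0.21, but the lines went apart: 0.40 (AGS), -0.32 (MKN1) and 0.48 (SNU601). MT1X was higher with JK139 in each line, at 0.43, 0.12 and 0.34, and MT1E differed by 0.37, -0.47 and 0.57. Cholesterol synthesis genes had a median of 0.06 over 16 tested of 24. In all 3 lines 3 were higher (18.8% beside 14.9% of all genes) and 2 lower (12.5% beside 14.4%). INSIG1, which holds SREBP factors in the endoplasmic reticulum, differed by 0.42, -0.18 and -0.58. Fatty acid synthesis genes had a median of 0.00 over 13 tested of 16, with FASN, the fatty acid synthase, at 0.14 and ELOVL5, an elongase of polyunsaturated fatty acids, at -0.31. ELOVL5 differed by -0.42, -0.46 and -0.04, but its signal was below the filter level in AGS and SNU601 with both compounds. In MKN1 it read 7.71 with Rhosin and 7.25 with JK139.

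Hypoxia and glycolysis genes had a median of -0.07 over 9 tested of 25. NDRG1, a hypoxia-induced gene, was lower with JK139 in each line, at -0.72, -0.20 and -0.14, and HK2, a hexokinase, differed by -0.83, 0.31 and -0.17. Squamous epithelial genes had a median of 0.11 over 7 tested of 20. Among them KLK7, a kallikrein of the skin barrier, was higher in each line, at 1.03, 0.21 and 0.28. None of these genes passed an adjusted p under 0.05 in limma.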
